A study of Drosophila melanogaster with 3 samples.

Results

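The ecdysone cascade genes described here are 10 transcription factor genes of the insect steroid hormone response: Hr4, EcR, usp, Eip74EF, Eip75B, br, Eip93F, Eip78C, Hr39 and ftz-f1. They are 10 of 13968 protein-coding genes on the chromosome arms, and all 10 were found in the Ensembl annotation by name. Hr4 was chosen for its 7 optimal summits, so its count is a description and no test was made of it, while the others were listed as its partners in the cascade. The data are peaks of ChIP-seq (chromatin immunoprecipitation with sequencing) for slouch (slou), a homeodomain protein of the NK class, in Drosophila melanogaster. All samples were mixed-sex embryos, 0 to 24 h old, of 1 transgenic line that stably makes slou with GFP fused to its C-terminus, and the tagged protein was precipitated from sonicated chromatin with an antibody against GFP. There were 3 biological replicates in 1 group and no control sample among them, so the values below set genes and peaks side by side, not conditions. Whole embryos of all embryonic ages were used, so a peak cannot be assigned to a cell type or a stage.

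Ecdysone is converted to 20-hydroxyecdysone, which binds a heterodimer of 2 nuclear receptors, EcR and usp. The bound receptor switches on a small set of early genes that encode transcription factors, and these control one another and a larger set of late genes. The cascade is best known from moulting and metamorphosis, and an ecdysteroid pulse in mid-embryogenesis is also needed for germ band retraction and head involution.

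Peaks were taken from 3 kinds of list in the genome build dm6. Each replicate had a list of 30000 peaks ordered by the authors' score, and the replicates pooled gave a list of the same length. The optimal list was the 2743 highest-scoring peaks of the pooled list, which passed a rank-based reproducibility threshold. The authors labelled the pooled list as peaks and background, the input to that threshold. Counts and densities of pooled-list summits below therefore include background and are not measures of slou peaks alone. The deposited score has no stated unit, is the authors' value, and ran between 92.0 and 1515 in the optimal list with a median of 136. A gene's window was its body and 1 kb upstream, a peak was placed by its summit, and the top 2743 peaks of a replicate are called its top peaks below. The optimal list was derived from the same replicates, so a peak's rank in them is not an independent test of it. Sequencing depth is unknown, and intervals are 95% Wilson intervals over peaks that cover counting error only. The files name the samples biological replicates without saying how the embryo collections were kept apart.

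The sequences at 7 of the 15 optimal summits of these genes are given first, because they are the stretches that the values below rank: the 3 highest of Hr4, the 2 others of Hr4 and the 1 of Eip75B that hold a shared motif, and the 1 of Eip75B that holds a homeodomain core. Each is read from the RefSeq Release 6 genome on the strand of its gene, 5′ to 3′, as 50 bases to each side of the summit, except that the one in the Hr4 3′ UTR is limited to the motif and 10 bases to each side. Capitals mark AGNTGGCGC, where N is any base and which reads GCGCCANCT on the opposite strand, and TAATTG, which reads CAATTA there. AGNTGGCGC is the core of the motif bound by the insulator protein CTCF in Drosophila, and it was picked after the sequences had been read.
Hr4, summit of rank 570 (X:1951874-1951974): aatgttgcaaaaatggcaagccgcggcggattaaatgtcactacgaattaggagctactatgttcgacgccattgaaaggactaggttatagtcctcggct
Hr4, summit of rank 609 (X:1963860-1963960): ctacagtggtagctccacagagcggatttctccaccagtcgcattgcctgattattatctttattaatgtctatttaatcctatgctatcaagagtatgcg
Hr4, summit of rank 685 (X:1947733-1947833): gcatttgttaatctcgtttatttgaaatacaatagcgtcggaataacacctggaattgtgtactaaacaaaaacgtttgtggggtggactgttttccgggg
Hr4, summit of rank 1416 (X:1953093-1953193): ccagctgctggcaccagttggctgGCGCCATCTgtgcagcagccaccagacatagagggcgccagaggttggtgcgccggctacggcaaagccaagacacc
Hr4, summit of rank 2118, 3′ UTR (X:2006000-2006028): ttcctcagtgGCGCCACCTgtatttagag
Eip75B, summit of rank 1510 (3L:18029966-18030066): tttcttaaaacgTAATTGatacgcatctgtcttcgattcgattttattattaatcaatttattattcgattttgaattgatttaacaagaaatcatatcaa
Eip75B, summit of rank 2162 (3L:18019759-18019859): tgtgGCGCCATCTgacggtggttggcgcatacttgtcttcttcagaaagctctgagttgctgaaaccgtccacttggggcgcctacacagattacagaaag

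Of the 10 genes, 5 held an optimal summit (Hr4, EcR, Eip74EF, Eip75B and ftz-f1), and over all protein-coding genes the share was 19.7%. Long windows hold more peaks, and 9 of the 10 genes have windows of 20 kb or more. Among protein-coding genes of that length, 41.9% held an optimal summit, against 5 of the 9 long cascade genes. Without Hr4, whose summits chose it, 4 of the 9 remaining genes and 4 of the 8 with long windows held one, which is near that background. Together the 10 windows spanned 603 kb and held 15 optimal summits, or 2.49 per 100 kb. In all long genes the density was 1.48 per 100 kb, and in all protein-coding genes 3.10 per 100 kb. Densities over sets of genes count a summit once for every window that holds it. The last value rests on 3449 counts from 2743 optimal summits, so the 10 genes cannot be placed below it. Over whole chromosome arms, where each summit counts once, the density was 0.890 to 2.48 per 100 kb. Without Hr4 the other 9 held 8 optimal summits in 536 kb, or 1.49 per 100 kb, close to that of long genes. Their pooled-list summits numbered 159, or 29.6 per 100 kb, against 21.9 per 100 kb in long genes. The count of genes rests on peaks of uneven support. Keeping only optimal peaks matched by top peaks of both other replicates, it was 4 without replicate 1, 3 without replicate 2 and 3 without replicate 3. The summits were 7, 9 and 7. Here a match in the named replicate was not asked for, but the optimal list still came from all 3. The filter could therefore only lower the counts. Eip74EF was lost in all 3 cases, and ftz-f1 without replicate 2 or 3. The share of all protein-coding genes under these shorter lists is not given here, so the fall cannot be read as particular to these genes.

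**Figure D1:**
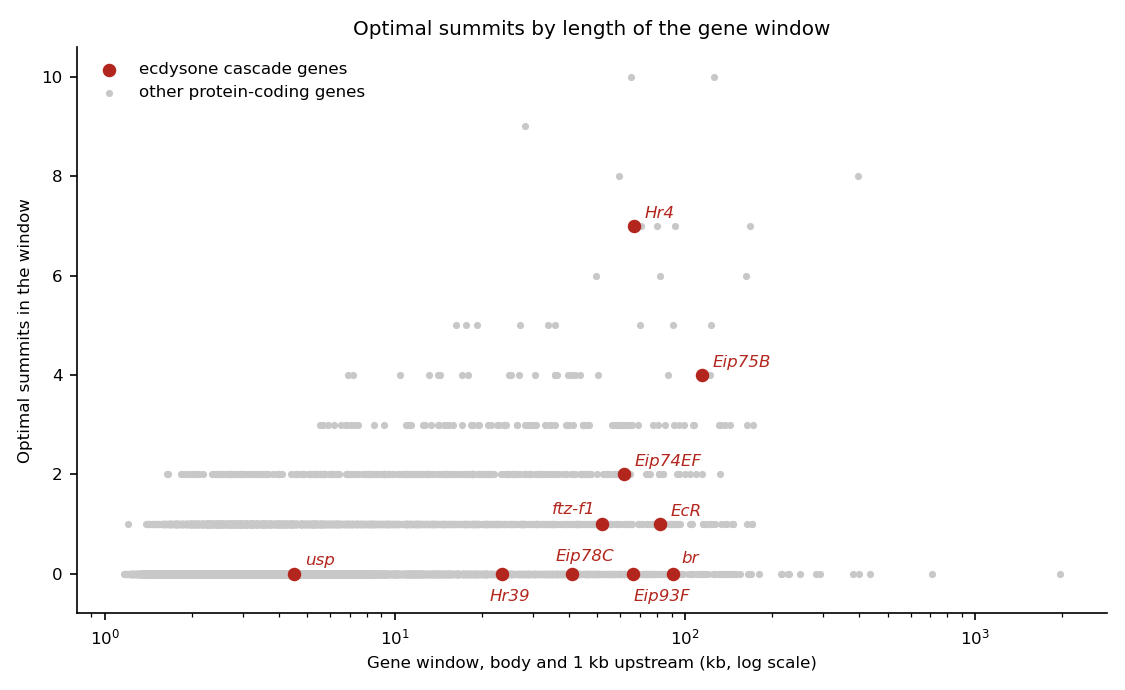
Optimal summits in the gene window (y axis, count) against the length of the window (x axis, kb, log scale) for 13968 protein-coding genes, with the 10 ecdysone cascade genes in red and the others in grey. Hr4 stands at 7 summits, Eip75B at 4, Eip74EF at 2, EcR and ftz-f1 at 1, and the other 5 at 0.

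Hr4 (FBgn0264562, X:1941940-2007956, plus strand) encodes a nuclear receptor that represses early genes in the prepupa and limits ecdysone synthesis in the larval prothoracic gland. Its window of 67.0 kb held 10 pooled-list summits, of which 7 were optimal. The 7 are the count for which Hr4 was chosen, and keeping only optimal peaks matched in both other replicates they were 4 without replicate 1, 5 without replicate 2 and 5 without replicate 3. In all, 10 protein-coding genes had 7 or more optimal summits and 5 had exactly 7. By optimal summits per 100 kb, Hr4, at 10.4, ranked 26 among 1084 long genes. Its pooled-list density was 14.9 per 100 kb, against 18.7 per 100 kb over the X chromosome, so the window was not rich in pooled-list summits. The full lists of replicates 1, 2 and 3 placed more summits there, at 17, 13 and 15.

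The 7 optimal summits of Hr4 lay apart from its 2 annotated start sites, at X:1941940 for 7 transcripts and X:1992300 for Hr4-RE and Hr4-RF. The highest, at X:1951924, had a score of 203 and rank 570 in the pooled list, and its peak ranked 675, 719 and 545 in replicates 1, 2 and 3. It lay 9984 bp downstream of the 5′ start site, in an intron of 10387 bp. The next, at X:1963910, had a score of 199 and rank 609, with ranks 766, 636 and 690 in the 3 replicates. It lay in the following intron, of 14429 bp. These 2 peaks were close in rank in every replicate. The summit at X:1947783, again in the intron of 10387 bp, had a score of 190 and rank 685. Its peak ranked 436 and 455 in replicates 1 and 3, and 1993 in replicate 2, so replicate 2 stood below the others.

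The 4 other optimal summits of Hr4 were lower. At X:1953143, 1219 bp from the highest summit and in the same intron, a peak of rank 1416 (score 134) ranked 2105, 1261 and 1683 in replicates 1, 2 and 3. It is the one whose 101 bases are only 34.7% A and T and hold AGNTGGCGC. At X:1943794, 1854 bp from the 5′ start site, a peak of rank 2105 (score 108) ranked 1994 and 1745 in replicates 1 and 2 but 5574 in replicate 3. The summit at X:2006040 lay in the 3′ UTR, 64100 bp from the 5′ end, at rank 2118 (score 107), and its peak ranked 1243 and 2397 in replicates 1 and 3 but 6557 in replicate 2. The lowest, at X:1984394 (rank 2557, score 96.1), lay 7906 bp upstream of the Hr4-RE and Hr4-RF start site in an intron of 9777 bp, and only replicate 2 had it among its top peaks, with ranks 6510, 1885 and 4357. Thus 4 of the 7 Hr4 peaks were top peaks in all 3 replicates, 2 in 2 of them and 1 in 1, and the intron of 10387 bp held 4 of the 7.

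Counted within each replicate, Hr4 held 6, 6 and 5 top summits in replicates 1, 2 and 3, a mean of 5.67 ± 0.577 (SD, n = 3). No other gene of the 10 held more than 3 in any replicate. Hr4 was chosen by its count in the pool of these same replicates, so these counts are not separate support for it. One more optimal summit lay just outside the Hr4 window, at X:1940181, 1759 bp upstream of its 5′ start site, at rank 1175 with ranks 1357, 1119 and 1260 in the 3 replicates. It was 126 bp from the start site of CG3587. The 3 remaining pooled-list summits of Hr4 all lay in the intron of 10387 bp, at ranks 6520, 7163 and 26823.

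**Figure D2:**
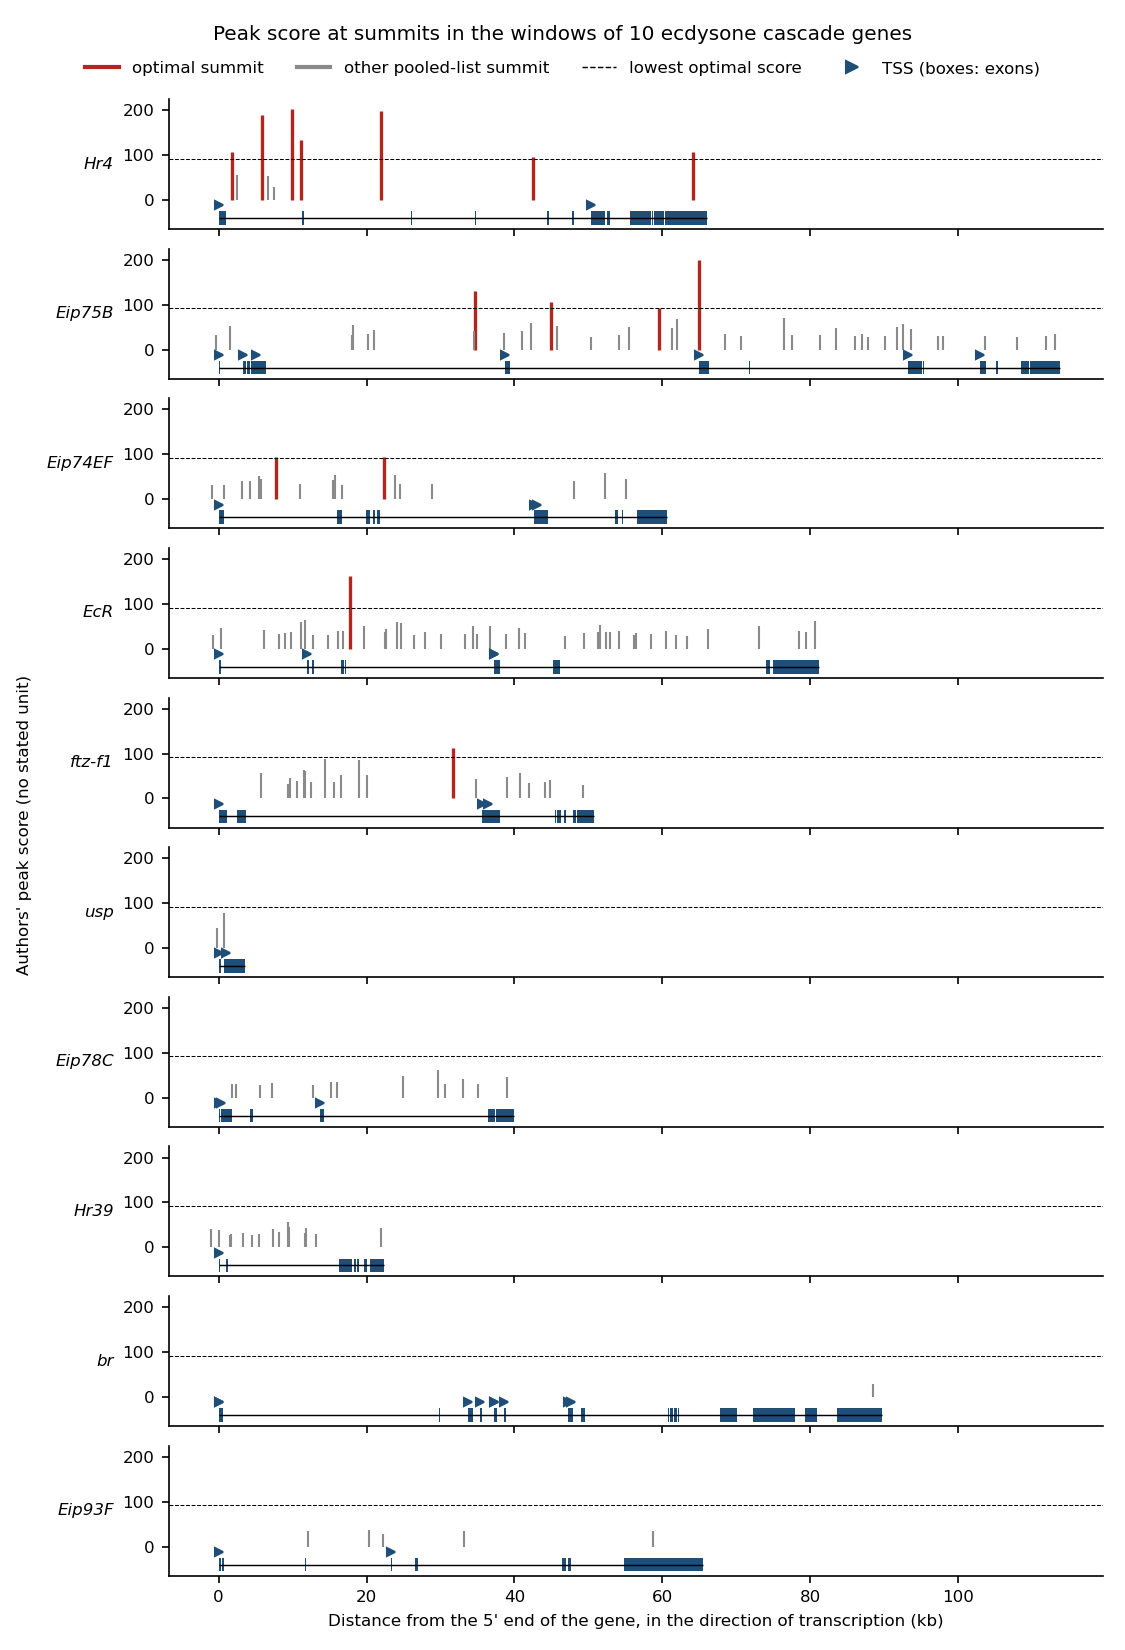
Authors' peak score (y axis, no stated unit) at each pooled-list summit along the 10 genes (x axis, kb from the gene's 5′ end), with optimal summits in red, others in grey, the lowest optimal score of 92.0 as a dashed line, exons as boxes and start sites as arrowheads. Hr4 has 7 red and 3 grey lines, whereas EcR has 1 red and the rest of its 46 lines grey, and br a single grey line near its 3′ end.

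By the number of optimal summits and then window length, the genes most like Hr4 were Tlk, sbb and CG32264, each with 7. Tlk, which encodes a chromatin-associated kinase, has a window of 70.8 kb with 37 pooled-list summits, and its 7 optimal summits were all intronic, with ranks between 32 and 2252. The window of sbb, which encodes a nuclear protein, was 80.1 kb with 51 pooled-list summits, and that of CG32264 was 92.6 kb with 33. Hr4, with 10 pooled-list summits, had the fewest of the 4. Likeness here is only in these counts over the pooled list.

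EcR (FBgn0000546, 2R:6087873-6169087, minus strand), the hormone-binding partner of the receptor, held 46 pooled-list summits in 82.2 kb but only 1 optimal summit. Its pooled-list density of 56.0 per 100 kb, which counts background entries too, was 2.31 times that of its chromosome arm, at 24.2 per 100 kb. The optimal summit, at 2R:6151308, had a score of 162 and rank 975, and its peak ranked 842, 1336 and 760 in replicates 1, 2 and 3, so it was a top peak in each. It lay 5821 bp downstream of the start site of EcR-RD and EcR-RE, in an intron of 56758 bp. The next summit of EcR ranked 4934, and it lay 331 bp upstream of that start site. It was a top peak in replicate 2 at rank 2306, ranked 21281 in replicate 3, and had no match in replicate 1. The optimal peak of EcR held 4 copies of AGNTGGCGC, at -99, 50, 103 and 176 bp from its summit, and it was the 1 optimal peak of 2743 with 4 or more, while 16 had 2 or more.

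Ultraspiracle, the other receptor subunit and the fly's RXR, is encoded by usp (FBgn0003964, X:2038798-2042311, minus strand), the shortest of the 10 with a window of 4.51 kb. It held 2 pooled-list summits and no optimal one. The higher, at X:2041511, ranked 3537 with a score of 78.8, below the lowest optimal score. Its peak ranked 3481, 2952 and 3688 in the 3 replicates, close together and just outside the top peaks of each. It lay 199 bp upstream of the usp-RA start site, in the 5′ UTR of the other transcript, inside the windows of Actn and CG4313 as well, and held TAATTA, the homeodomain core.

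Eip75B (FBgn0000568, 3L:17950953-18064696, minus strand), an early gene whose nuclear receptor binds heme and represses transcription, has the longest window of the 10 at 114.7 kb and 7 start sites. It held 4 optimal summits among 39, second to Hr4, and 3 top summits in each of the 3 replicates. The highest, at 3L:17999807, had a score of 199 and rank 605 and lay 14 bp from the start site of Eip75B-RC. Its peak ranked 468, 1029 and 544 in replicates 1, 2 and 3. It was the only optimal summit of the 10 genes within 500 bp of a start site. The second, at 3L:18030016 (rank 1510, score 130), lay 3984 bp upstream of the Eip75B-RG start site and held TAATTG. Its peak ranked 1038 and 1116 in replicates 1 and 3, and 2881 in replicate 2, just outside the top peaks.

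Both lower summits of Eip75B lay in the intron of 65240 bp. The one at 3L:18019809 (rank 2162, score 106), which held AGNTGGCGC, ranked 2124, 4701 and 1670 in replicates 1, 2 and 3. The one at 3L:18005228, at rank 2687 with a score of 93.1, ranked 4308, 2590 and 2753. Only replicate 2 had it among its top peaks, and in replicate 3 it fell just outside them. Neighbouring optimal summits of Eip75B lay 5421, 14581 and 10207 bp apart.

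Eip74EF (FBgn0000567, 3L:17558672-17619325, minus strand), an early gene encoding ETS-domain factors, held 2 optimal summits among 18 in 61.7 kb. Both were near the end of the optimal list. At 3L:17611581 (rank 2652, score 93.9), in the first intron of 15267 bp, the peak ranked 4228, 3433 and 2164 in the 3 replicates and was a top peak only in replicate 3. At 3L:17597031 (rank 2690, score 93.0), in an intron of 31734 bp, it ranked 1695, 8112 and 2942 and was a top peak only in replicate 1. The second of these peaks held AGNTGGCGC at -96 bp from its summit. Counted within replicates, Eip74EF had 1, 0 and 1 top summits, and no optimal summit of this gene was a top peak in more than 1 replicate.

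The gene br (FBgn0283451, X:1575132-1664869, plus strand) encodes the Broad zinc-finger proteins that specify pupal development, and Eip93F (FBgn0264490, 3R:21949114-22014539, plus strand) encodes a pipsqueak-domain factor of larval tissue death and adult development. Neither held an optimal summit, and both had few pooled-list summits for their length. In the full lists of replicates 1, 2 and 3, br held 3, 9 and 5 summits and Eip93F 6, 10 and 7. In br, 16 transcripts from 9 start sites span a window of 90.7 kb with 1 pooled-list summit, or 1.10 per 100 kb, against 18.7 per 100 kb over the X. That summit ranked 26734, lay in the 3′ UTR inside the window of Mur2B too, and was matched only in replicate 2, at rank 11723. Among 243 protein-coding genes with windows of 60 kb or more, 7 had at most 1 pooled-list summit. Eip93F held 5 pooled-list summits in 66.4 kb, or 7.53 per 100 kb, against 18.6 per 100 kb over its arm. The best ranked 15921 in the pooled list, 20162 in replicate 1 and 9724 in replicate 3, with no match in replicate 2.

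A peak in br was, however, high in 2 replicates. It ranked 1006 in replicate 2 (X:1618631-1619000, score 56.7) and 758 in replicate 3 (X:1618706-1619089, score 61.6), had no match in the list of replicate 1, and overlapped no peak of the pooled list. It lay in an intron, 3492 and 3410 bp upstream of the br-RS start site by the summits of replicates 2 and 3. Top peaks without a pooled-list peak were rare, at 24, 19 and 15 of 2743 in replicates 1, 2 and 3, and 6 of the 19 in replicate 2 also overlapped a top peak of replicate 3. With this peak, br had 0, 1 and 1 top summits in the 3 replicates.

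The 3 genes that act between the early and late responses, or in the prepupa, differed in their best peak. Eip78C (FBgn0004865, 3L:21226609-21266503, plus strand), a nuclear receptor gene related to Eip75B, held 13 pooled-list summits in 40.9 kb and no optimal one. Its best, at 3L:21256256, ranked 5220 in the pooled list and 10409, 4067 and 24932 in the 3 replicates, a wide spread. Hr39 (FBgn0261239, 2L:21237250-21259675, plus strand), a nuclear receptor gene related to ftz-f1, held 15 pooled-list summits in 23.4 kb, and none was optimal. At 64.0 per 100 kb its window was the densest of the 10 in the pooled list, which includes background. The best summit of Hr39, at 2L:21246599, ranked 6262, and its peak ranked 13341, 4222 and 11367. A lower one, at pooled rank 11080, was a top peak in replicate 3 at 2564 and had no match in the other two.

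The competence factor of the prepupal response and a partner of the segmentation protein Ftz is encoded by ftz-f1 (FBgn0001078, 3L:18750607-18801309, minus strand). It held 1 optimal summit among 20 in 51.7 kb. That summit, at 3L:18769662 (rank 1950, score 112), lay 3918 bp upstream of the start site of ftz-f1-RC and ftz-f1-RD, in an intron of ftz-f1-RB of 33674 bp. Its peak ranked 1683 and 1318 in replicates 2 and 3, and 4899 in replicate 1. Just outside the optimal list were 2 more of its summits, at ranks 2899 (score 88.6) and 3067 (score 85.7), followed by that of usp at 3537. Just inside were those of Eip74EF at 2690 and 2652 and of Eip75B at 2687, so small steps in score separate these genes. Within replicates ftz-f1 had 1, 1 and 3 top summits.

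**Figure D3:**
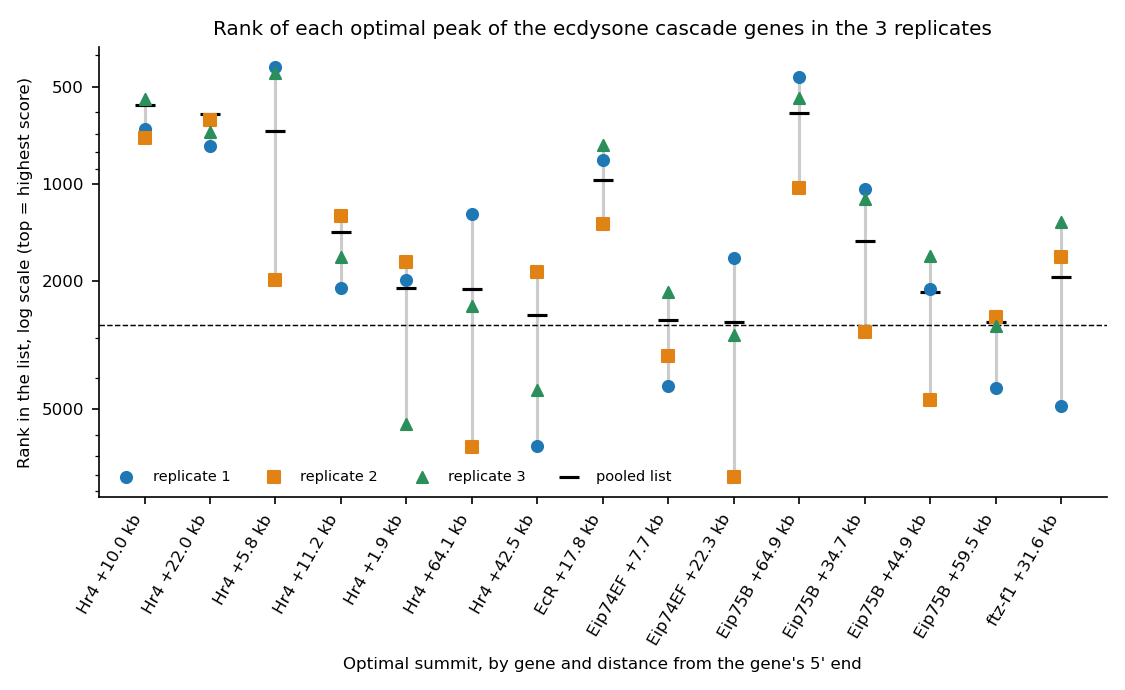
Rank (y axis, log scale, highest score at the top) of each of the 15 optimal peaks (x axis, by gene and distance of the summit from the gene's 5′ end) in replicates 1, 2 and 3 and in the pooled list, with the list length of 2743 dashed. The 2 highest Hr4 peaks have their 3 replicates close together, between ranks 545 and 766, while the second Eip74EF peak runs between 1695 and 8112.

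Over the 15 optimal peaks, 6 were top peaks in all 3 replicates (40%, 95% interval 19.8 to 64.3), against 60.7% of all optimal peaks. These 6 were 4 of Hr4, 1 of EcR and 1 of Eip75B. Of the others, 5 were top peaks in 2 replicates and 4 in 1. Replicates 1, 2 and 3 had 11, 10 and 11 of the 15 among their top peaks, a mean of 71.1% ± 3.85 (SD, n = 3). For all optimal peaks it was 82.8% ± 3.04. These SDs are over replicates that score the same peaks, so they leave out the counting error of 15 peaks. The 15 also stood lower in the list, with a median rank of 1950 against 1372. For all intronic optimal peaks the mean was 80.5% ± 2.19, 55.9% were top peaks in all 3 replicates, and the median rank was 1520. Genes with a top summit numbered 5, 5 and 7 of the 10 in replicates 1, 2 and 3, and their top summits numbered 12, 13 and 16. Without Hr4, and among long windows alone, the genes were 4, 4 and 6 of 8, against 41.9%, 42.3% and 41.9% of all protein-coding genes with long windows. Over protein-coding genes of any length the shares were 19.1%, 19.9% and 19.3%.

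The optimal summits of the cascade genes were mainly intronic. In an intron and over 500 bp from any protein-coding start site were 13 of the 15 (86.7%, 62.1 to 96.3), against 29.2% of all optimal summits. Within 500 bp of a start site was 1 of 15 (6.67%), against 56.1%. The genes most like Hr4 showed the same: 7 of 7 optimal summits of Tlk, 6 of 7 of sbb and 6 of 7 of CG32264 were intronic. The intronic share is therefore not particular to the cascade genes. Their windows are mostly long introns, and the part that this plays was not tested. Seen from the start sites, 1 of 36 of the cascade genes had an optimal summit within 500 bp (2.78%, 0.492 to 14.2), and over all protein-coding start sites the share was 13.4%. A pooled-list summit of any rank was within 500 bp of 10 of the 36 (27.8%), against 46.0%. The optimal summit nearest to any of the 9 start sites of br was 46627 bp away. All 15 peaks were 390 bp wide, and no other gene's window held any of their summits.

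**Figure D4:**
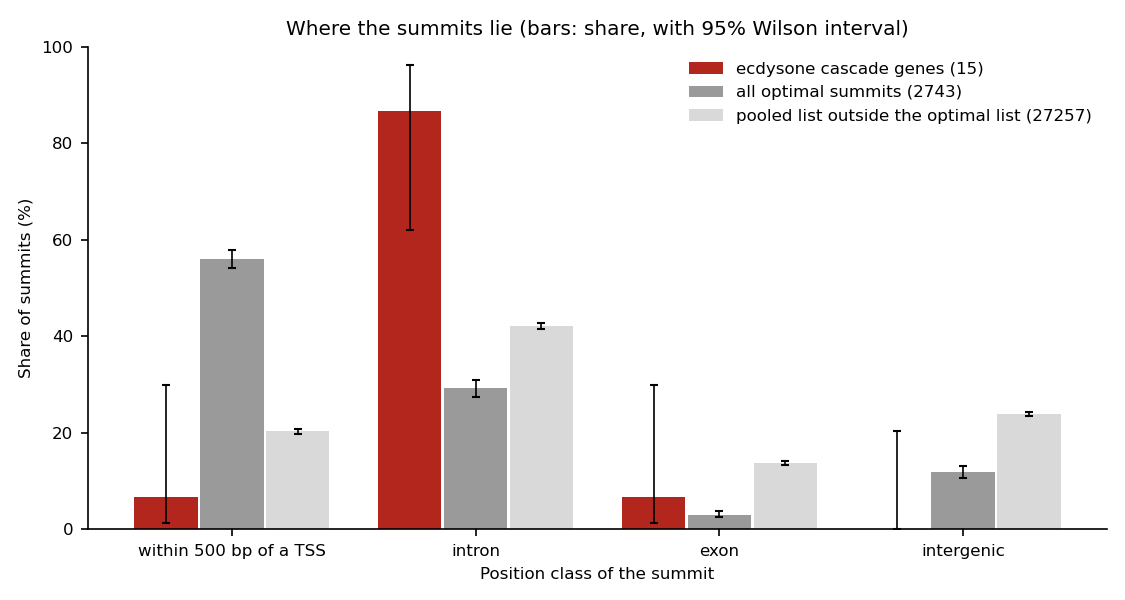
Share of summits (y axis, %) in 4 position classes (x axis) for the 15 optimal summits of the ecdysone cascade genes, all 2743 optimal summits, and the 27257 pooled-list summits outside the optimal list, with 95% Wilson intervals. Introns hold 86.7% of the first set, against 29.2% of all optimal summits.

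Short motifs were searched on both strands within 50 bp of the summits. TAATTA, the core of many homeodomain sites, was found at 0 of the 15 (interval 0 to 20.4%), against 10.8% of all optimal summits, and TAATTG at 1, against 11.3%. AGGTCA, the core element of nuclear receptor sites, was at 0 of the 15, against 1.79%. With 15 windows these counts cannot be told from the shares over all optimal summits. AGNTGGCGC was at 3 of the 15 (20%), the summits of Hr4 and Eip75B shown above, and 2 of these are of Hr4. It was at 48 of 2743 optimal summits (1.75%), and at 0.525% of pooled-list summits outside the optimal list. In the whole peak AGNTGGCGC was found in 5 of the 15 (33.3%), against 86 of 2743 (3.14%). The 101 bases at the 15 summits were 59.2% ± 10.9 A and T (SD over summits), against 66.7% ± 8.68 at all optimal summits and 67.9% ± 7.39 at all intronic optimal summits. At pooled-list summits outside the optimal list the value was 60.5% ± 9.46, close to that of the 15. The motif is rich in G and C, and it was picked on these windows. The 2 differences are therefore not independent, and no test or interval is given for the motif. A match is a stretch of letters, and binding of CTCF was not measured.

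Outside the 10 genes, 56 other genes of the pathway were listed in 5 groups, and 17 of them held an optimal summit (30.4%), against 19.7% of all protein-coding genes. Of the 18 with long windows, 10 did, against 41.9% of all long genes. With gene bodies only, the 17 became 11, but the share over all genes for that window is not given here. The group counts that follow are small, and the groups differ in window length. None of the 11 genes of hormone synthesis and breakdown did, and their median window was 3.67 kb. Of 5 genes of hormone signal and transport there were 2, both ABC transporter genes: E23, with 3 optimal summits and a best rank of 116, and Atet, with 2 and a best rank of 978. Co-regulators of the receptor were 5 of 8, led by the co-repressor gene Smr (best rank 185), alien (191), the EcR co-activator gene tai (678) and TP53INP (743). Other nuclear receptors were 3 of 14, namely Hr3 (best rank 67), ERR (342) and Hnf4 (1212). Hr3, which is itself induced by ecdysone and activates ftz-f1, held 3 optimal summits in 34.4 kb. Its best outranked all 15 of the 10 cascade genes, as did the best of E23, Smr, alien, ERR and Ldh. Among 18 other inducible genes 7 had one, led by Ldh (251), ImpL2 (907), the cell death gene hid (1004) and Eip63F-1 (1061).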

How the data were processed

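The labels describe 3 biological replicates of 1 group, and no control sample was analysed here. The deposited README files list, for each replicate and for all pooled, a peak file made with a control alignment, and an optimal file derived from these. Aligner and peak caller are not given in the sources used. Column 7 of each list, the deposited score, is the authors' value and ranked and described peaks inside 1 list at a time. The authors' −log10 q values were not used in any count. Only the dm6 lists were used, and the dm3 lists were not used here. The 2743 optimal peaks head the pooled list of 30000 by score. Depth is unknown, since these lists carry no read counts.

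Summits were assigned to Ensembl release 115 gene models (BDGP 6.54), with sequence from the RefSeq Release 6 genome, in Python 3.11.15 with numpy 2.4.6 and scipy 1.17.1. Coordinates are 1-based. For a rank, a replicate match is an overlap of at least 1 bp with any replicate peak, and the rank is that of the best one. Where peaks are counted as matched in replicates, the overlap is with top peaks only, unless another list length is stated. Counting was tested on simulated peaks. Of the 56 listed pathway symbols, 6 were matched by synonym.

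The 10 genes, the pathway lists and the alternatives were chosen with earlier results of these data known, so no test was made. The genes named are the 10, the bound genes of each pathway list up to 4 by best peak, other genes sharing a summit, and the 3 with as many optimal summits as Hr4 and the nearest window length. CG3587 was named after its values were seen. The alternatives were other windows, TSS distances, list lengths, overlaps, sequence windows and gene models. Another kept, for each replicate in turn, only optimal peaks matched in both others.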

Additional observations from a re-analysis of the deposited data

How the results depend on the processing

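Of 73 alternatives, 56 kept their value within the limits set and 17 moved it. The limits were wide, so the 56 do not show stability. For shares they were the Wilson interval over the 15 peaks, and for A and T content 48.3 to 70.1%. A share near a start site of 20% with the 1371 higher-scoring peaks, against 6.67%, counted as kept. So did 26.7% matched in all 3 replicates with shorter replicate lists, against 40%. So did 7 of the 10 genes with the 5486 highest pooled-list peaks, against 5. With the 1371 higher-scoring optimal peaks, 3 of the 10 genes (Hr4, EcR and Eip75B) held a summit, 5 in all and 3 in Hr4, at 0.829 per 100 kb, and 100% of these were matched in all 3 replicates. With the 5486 highest pooled-list peaks, the 10 windows held 25 summits, or 4.14 per 100 kb, and Hr4 still held 7. Top lists of that length in the replicates matched 73.3% of the 15 peaks in all 3. Leaving out each replicate in turn, and keeping optimal peaks matched in both others, gave 3 to 4 genes, 7 to 9 summits, 4 to 5 in Hr4, and 1.16 to 1.49 per 100 kb, where the lists kept 1847 to 2003 peaks. With gene bodies only, 11 of the 56 other pathway genes held an optimal summit. With 2 kb upstream, Hr4 had 8. Shares and densities over all protein-coding genes under these alternatives are not given here. A shorter or longer list or window changes counts for all genes, so these changes cannot be read as particular to the listed genes. The causes were not tested. The group has 3 samples, too few to look for a sample that stands apart. No paired analysis was possible because there is only 1 group. Depth is unknown, so a gene without an optimal summit is one where none passed the threshold, not one shown to be unbound.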
